A study of Saccharomyces cerevisiae with 10 samples.

Results

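The genes described here encode the proteins of the mitochondrial ribosome of the yeast Saccharomyces cerevisiae. They were taken by symbol from the array's annotation: names that begin with MRPL or MRPS, names made of MRP or RSM and a number (apart from MRP8, which shares only the name), and IMG1, IMG2, PET123, YML6 and NAM9. This gave 72 probe sets for 71 genes among the 9275 probe sets that are not controls, and all 72 were bright enough to be tested. A probe set is a group of short oligonucleotides that measures 1 transcript, and 42 of the 72 belong to the large subunit and 30 to the small subunit.

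A deletion strain was set against wild type, with 5 Affymetrix Yeast Genome S98 arrays for each. The deletion strain lacks EDC3 (edc3Δ, named CFY25 in the sample labels and SYY14 in the design text), and the wild type is HFY114, which the design text calls isogenic. Both were grown without treatment in the rich medium YEPD at 30 °C, and both were sampled as bulk cultures, so that fewer cells with a transcript and less RNA per cell cannot be told apart. Within a strain the arrays are labelled as biological replicates 1 to 5, and each number carries a letter that both strains share, A, B, C, E or G, which stands for an experiment here.

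The mitochondrial ribosome translates the few mRNAs of the mitochondrial genome, which encode core subunits of the respiratory chain and of the ATP synthase. Nearly all of its proteins are encoded in the nucleus, made in the cytoplasm and imported. Some descend from bacterial ribosomal proteins and others have no bacterial counterpart. Here 43 of the 72 probe sets were grouped with the first kind and 29 with the second. In yeast, many of these mRNAs are bound by Puf3, a protein that promotes mRNA decay, and genes of mitochondrial respiration are repressed on glucose. Edc3 is a cytoplasmic protein that stimulates removal of the 5′ cap from mRNA, a step that leads to decay. The strains are compared to see whether the mRNAs of this large, co-regulated family change in level when Edc3 is missing, and the experiments to see how far the family differs between arrays of the same strain.

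The EDC3 probe set checked the labels: its signal averaged 1.38 ± 0.85 in the deletion strain and 469 ± 8.93 in wild type (SD, n = 5 each), a log2 difference of -8.97 (limma adjusted p = 1.73e-04). Signals are in the arbitrary units of the MAS5 software, on a linear scale on which every array had been brought to one level, and the median signal of an array was between 58.2 and 66.8. The number of arrays limits the precision of every comparison. The arrays of experiments E and G stood apart from the others in both strains and were also nearly alike within a strain. Over the 72 probe sets, the robust SD of the log2 difference between arrays E and G was 0.09 in the deletion strain and 0.13 in wild type, against 0.18 to 0.30 and 0.16 to 0.34 for the other pairs of arrays of these strains. The labels make them separate replicates and they were counted so, and the counts of called members and the members' median are also given without them or with both averaged as 1 replicate.

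The members spanned a wide range of brightness. Their mean signals over the 10 arrays ran between 24.3 and 950.3, with a median of 246. Of the 72, 13 had a mean under 100, 32 one between 100 and 300, and 27 one above 300. Brightness depends on the probes as well as on the transcript, so these values order no genes by RNA level. The genes lie on 14 chromosomes, with 12 on chromosome IV and 11 on chromosome XIV, and MRPS12 and RSM19 were the 1 pair of members that are direct neighbours in the R64 annotation.

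Loss of EDC3 was followed by no called difference in any mitochondrial ribosomal protein gene. Of the 72 probe sets, 0 passed limma's test at an adjusted p of 0.05, where 0.0770% of all 6492 tested probe sets did. With the experiments as a block, which compares the strains within each experiment, again 0 of the 72 passed, where 0.447% of all did. At an unadjusted p under 0.05, limma picked out 4 members, all higher in the deletion strain, which is 5.56% of the members, against 2.66% of all tested probe sets higher and 4.82% either way. In the lower direction it picked out 0 members, against 2.16% of all. In the blocked fit 19 of the 72 had such a p, 26.4% of the members against 23.1% of all, and of these 18 were higher and 1 lower in the deletion strain, against 11.7% and 11.4% of all.

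The small differences that were measured ran mostly one way. The log2 difference, deletion minus wild type, was above 0 for 46 of the 72 probe sets, or 63.9%, where 48.9% of all probe sets were above 0. Its median was 0.05 over the members and -0.00 over all tested probe sets, in a range of -0.16 for MRPL4 to 0.65 for MRPS9. The median of the members was 0.07, 0.09, 0.09, 0.03 and 0.04 in experiments A, B, C, E and G, while that of all probe sets stayed between -0.03 and 0.01. The deletion array was the higher one in all 5 experiments for 14 members, or 19.4%, against 10.2% of all probe sets, and the lower one in all 5 for 0 members, against 10.2% of all. These counts describe the family and were not tested. With experiments E and G averaged as 1 replicate, the median was 0.08, with 52 of 72 above 0. With 1 array left out it was 0.02 without deletion array A, deletion array B or wild-type array E, 0.10 without wild-type array A or deletion array G, 0.11 without wild-type array B and 0.13 without deletion array E.

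By subunit, 22 of 30 small-subunit probe sets were above 0, or 73.3%, with a median log2 difference of 0.10, and 24 of 42 large-subunit ones, or 57.1%, with a median of 0.04, where 48.9% of all probe sets were above 0. In experiments E and G the large-subunit medians were 0.0060 and 0.0024. Probe sets of genes without a bacterial counterpart had 19 of 29 above 0 and a median of 0.05, and those with one had 27 of 43 and a median of 0.05. Neither split was tested. Across the 71 genes, the strain difference and gene length correlated at r = 0.09 (Spearman rho 0.11), and the strain difference and mean log2 signal at r = -0.17 (rho -0.21), as a description of genes measured on the same arrays.

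**Figure D1:**
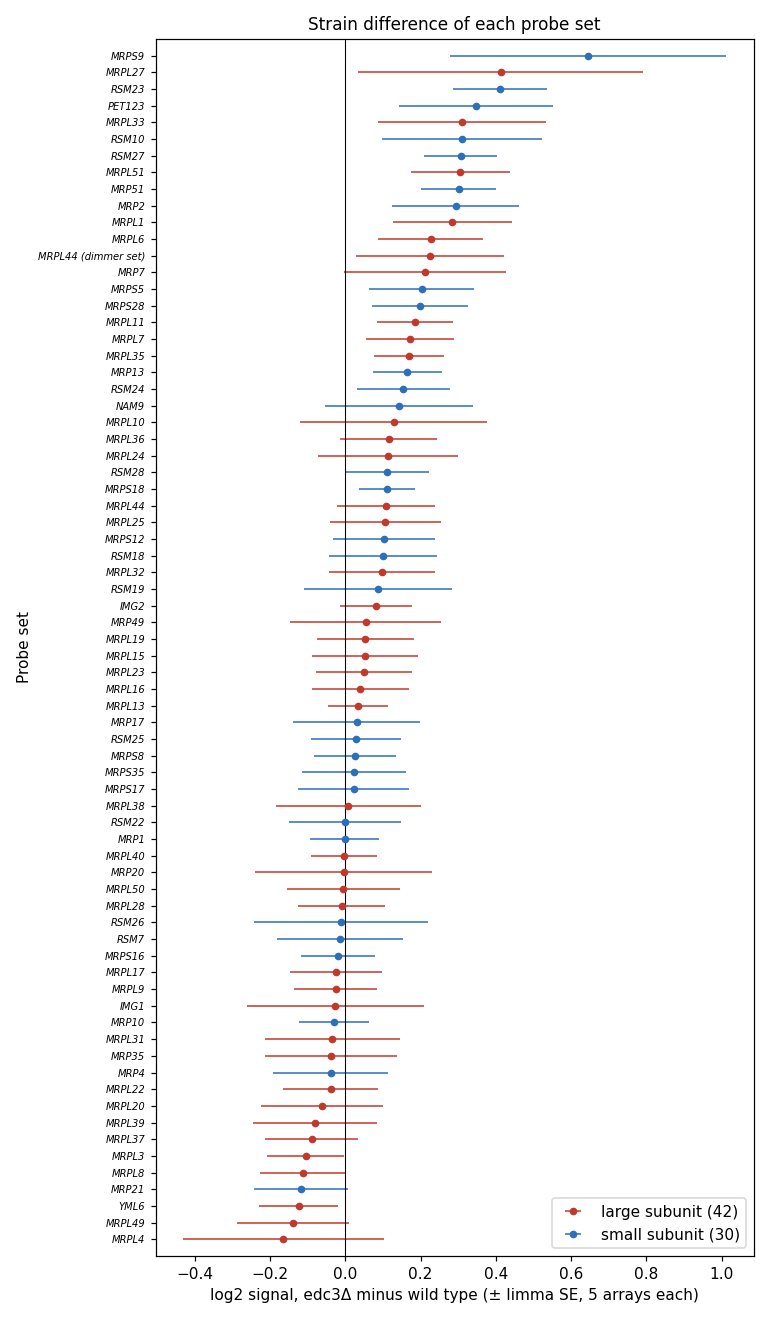
Strain difference of each of the 72 probe sets, ordered by size: the x axis is the log2 signal in edc3Δ minus that in wild type, points are means and bars are limma's standard errors (5 arrays each), red for the large and blue for the small subunit. Of the 72 points 46 lie above zero, and MRPS9 and MRPL27 combine the largest differences with the widest bars.

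The precision sets what such a comparison could have missed. The standard error of a member's log2 difference ran between 0.07 and 0.38, with a median of 0.14, and the median was 0.06 in the blocked fit. For 59 of the 72 probe sets the 95% interval of the difference lay within 1.5-fold in either direction, 81.9% of the members against 78.5% of all probe sets. The same held for 67 of the 72 in the blocked fit, or 93.1% against 91.8%. For the other members the interval reached past 1.5-fold, so a difference of that size was not excluded.

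Among the members of smallest p, small-subunit genes came first. RSM23, the yeast counterpart of the mammalian protein DAP3, had signals of 57.1, 47.4, 45.4, 43.5 and 42.4 on the deletion arrays A, B, C, E and G, against 42.1, 35.2, 35.6, 31.8 and 32.4 on the wild-type arrays. The groups did not overlap, and the deletion array was higher in each experiment by 0.35 to 0.45 on the log2 scale. The log2 difference was 0.41 ± 0.13 (SE), a 1.33-fold ratio, with a limma adjusted p of 0.804, and an adjusted p of 0.0622 in the blocked fit. The exact permutation p was 0.00794, before any adjustment for the number of genes. It is the smallest that 5 against 5 arrays can give when they are exchanged without regard to experiment, with E and G counted separately.

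RSM27, another protein of the small subunit, read 78.1, 79.4, 86.9, 79.1 and 79.7 in the deletion strain, against 60.6, 71.7, 72.1, 59.6 and 62.9 in wild type. All 5 deletion arrays were above all 5 wild-type arrays, with a log2 difference of 0.31 ± 0.10 (SE, limma adjusted p = 0.846; 0.0734 in the blocked fit). MRP51, which in yeast acts with the leaders of mitochondrial mRNAs in their translation, read 125.8, 116.6, 116.2, 131.1 and 146.4 in the deletion strain, against 111.9, 90.2, 99.4, 106.9 and 107.4 in wild type. Its groups did not overlap either, and the log2 difference was 0.30 ± 0.10 (SE, limma adjusted p = 0.931; 0.0701 in the blocked fit). RSM23, RSM27 and MRP51 were the 3 members, or 4.17%, whose deletion arrays were all above their wild-type arrays, where 0.570% of all tested probe sets had this order. The reverse order was seen for 0 members and for 0.632% of all.

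MRPL51, a large-subunit protein with no bacterial counterpart, read 469, 535, 337.8, 387.3 and 406.3 in the deletion strain, against 372.6, 394.5, 339.5, 292.6 and 317.2 in wild type. The groups overlapped: deletion arrays C and E were below wild-type array B, and in experiment C the strains read nearly the same. Its log2 difference was 0.31 ± 0.13 (SE, limma adjusted p = 0.997, and 0.0782 in the blocked fit). Next by p came MRPL11, MRPL1, MRPL35 and MRP13, with log2 differences of 0.19, 0.28, 0.17 and 0.16 (limma adjusted p = 0.999 for each). In limma's blocked fit their adjusted p values were 0.1435, 0.0799, 0.203 and 0.157. MRPL11 and MRPL1 are the counterparts of bacterial L10 and L1, and MRPL35 and MRP13 have none. The last of the 10, MRPS9 and MRP2, differ from these in their pattern over the experiments.

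**Figure D2:**
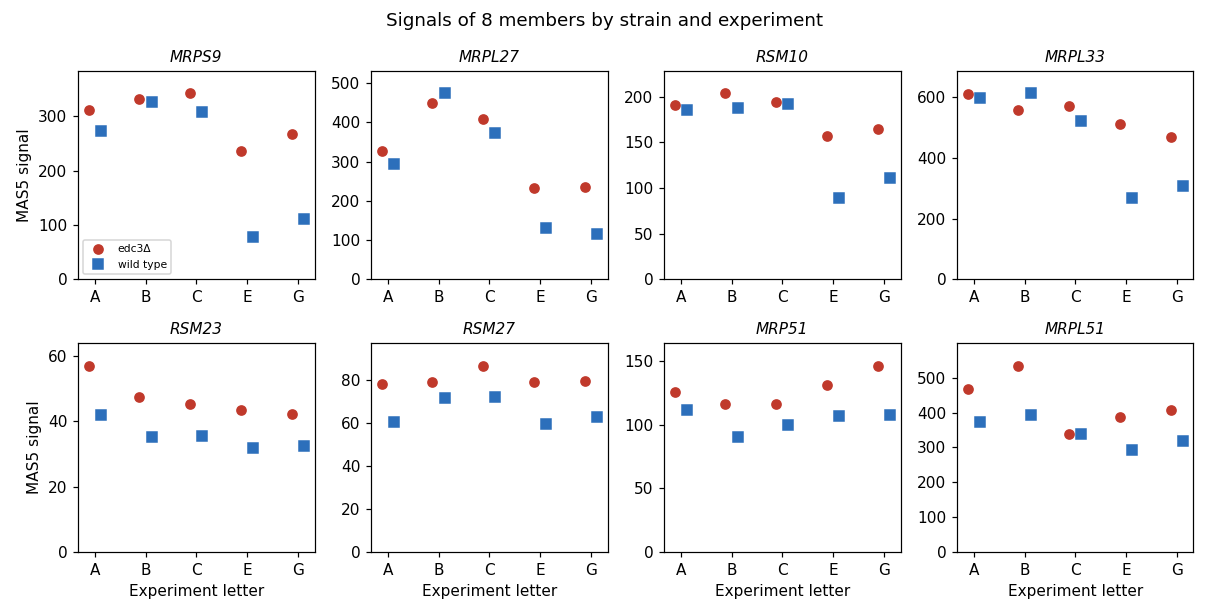
MAS5 signal (y axis, arbitrary linear units, from 0) of 8 members on each array, by experiment letter (x axis), with edc3Δ as red circles and wild type as blue squares. In the upper row the wild-type signals of experiments E and G lie far below the edc3Δ signals; in the lower row the gap between the strains is of like size in most experiments.

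In experiments E and G, a few members were low in wild type and less so in the deletion strain. MRPS9, the counterpart of bacterial S9, read 311.4, 332.5, 342.4, 236.5 and 267.2 on deletion arrays A, B, C, E and G, against 273.4, 326.4, 308.1, 78.5 and 110.7 on wild-type arrays. The low values are those of wild-type arrays E and G. Its log2 difference was 1.59 and 1.27 in experiments E and G but 0.03 to 0.19 in A, B and C, so the mean over 5 experiments, 0.65 ± 0.37 (SE, limma adjusted p = 0.999; 0.149 in the blocked fit), describes neither set.

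MRPL27, a large-subunit protein without a bacterial counterpart, read 326.7, 449.2, 409.2, 233.1 and 235.1 in the deletion strain, against 293.5, 474.8, 372.1, 130.5 and 116.4 in wild type. Here both strains were low in E and G, wild type more so. The strain difference was 0.84 and 1.01 in E and G, against -0.08 to 0.15 in the others, and 0.41 ± 0.38 (SE, limma adjusted p = 0.999) over all 5.

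RSM10 and MRPL33, the counterparts of bacterial S10 and L30, were picked for the same pattern after their values were seen. RSM10 read 190.4, 203.9, 194.7, 156.5 and 164.9 in the deletion strain, against 185.2, 188, 192.3, 89.3 and 111.3 in wild type. MRPL33 read 611.9, 557.2, 570.3, 512.3 and 467.9 in the deletion strain, against 598.5, 613.9, 521.3, 268.4 and 309 in wild type. For both, wild-type arrays E and G were the lowest of the 10. MRP2, the counterpart of bacterial S14, read 513.1, 643.7, 484.7, 441.6 and 460.5 in the deletion strain, against 539.9, 469.5, 469.1, 298.2 and 332.4 in wild type, again lowest in wild type E and G, with a log2 difference of 0.29 ± 0.17 (SE, limma adjusted p = 0.999).

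Such a gap was not frequent in the family. A signal at least 1.5-fold higher in the deletion strain in both E and G was seen for 3 of the 72 probe sets, those of MRPL27, MRPS9 and MRPL33, or 4.17%, against 3.22% of all probe sets. One at least 1.5-fold lower in both was seen for 0 members, against 0.493% of all. In any of experiments A, B and C, 1 member was at least 1.5-fold higher, PET123, against 4.28% of all. PET123, a small-subunit protein needed for mitochondrial translation, read 109.3, 92.4, 65.2, 78.1 and 85.3 in the deletion strain, against 89.3, 82.6, 42.4, 59.1 and 71.2 in wild type, and the wild-type array of experiment C was the lowest. Over all experiments PET123 differed by 0.35 ± 0.20 (SE, limma adjusted p = 0.999, and 0.0782 in the blocked fit). It too was named after its values were seen.

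A fit to the 4 arrays of E and G alone called 20 members, 14 higher and 6 lower in the deletion strain, or 27.8% against 19.5% of all probe sets (10.5% higher and 8.96% lower). With the block it called 32, 22 higher and 10 lower, or 44.4% against 35.1% (17.0% higher and 18.1% lower). If both pairs come from one RNA of each strain, these adjusted p values are too small, and the labels do not settle it. Experiments A, B and C alone gave 0 called members without the block, where 0.0308% of all probe sets were called, and 0 with it, where 0.0462% were.

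Differences between experiments were larger than those between strains, and for most members they had the same direction in both strains. Their size could differ: for MRPS9, E and G minus A, B and C was -0.39 in the deletion strain and -1.69 in wild type. Limma's F test over the 5 experiments, with the strain in the model, called 44 of the 72 probe sets at an adjusted p of 0.05, or 61.1%, against 51.8% of all tested probe sets. The test fits the same experiment effect to both strains, so it cannot show whether they share it. For 39 of the 44 the mean of arrays E and G was below that of A, B and C, and for 5 it was above. That is 54.2% and 6.94% of the members, where 29.4% and 22.4% of all probe sets were called in these directions. With E and G averaged as 1 experiment, 40 of the 72 members were called, with experiment B left out 29, and with experiments A, B and C alone 12. The share of all tested probe sets called changed with the setting too. It was 36.2% to 51.0% with 1 experiment left out, and 16.6% at its lowest over all settings. The split of E and G from the rest was known from earlier results of these arrays, so its values are given as a description with no test.

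Mitochondrial ribosomal protein genes read lower in experiments E and G as a family. The mean log2 signal of E and G was below that of A, B and C for 66 of the 72 probe sets, or 91.7%, against 58.1% of all. It was so within each strain for 59, or 81.9%, against 47.5%. For 31 members, or 43.1%, all 4 arrays of E and G were below all 6 others, against 16.5% of all probe sets, and for 1 member they were all above, 1.39% against 9.50%. The median of the log2 difference, E and G minus A, B and C, was -0.28 over the members and -0.07 over all tested probe sets. It was -0.27 within the deletion strain and -0.26 within wild type.

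The shift ran through both subunits and did not depend on the scaling for its sign. The median was -0.29 for the large subunit and -0.24 for the small one, and -0.29 and -0.26 for genes with and without a bacterial counterpart. After quantile normalization the median of the members was -0.20, with 60 of 72 lower, and after centring each array on its median it was also -0.20, with 60 of 72 lower. All probe sets then had medians of -0.01 and 0.02. By array, the median of the members, each taken relative to its own mean over the 10 arrays, was -0.15 and -0.12 on deletion arrays E and G and -0.21 and -0.18 on wild-type arrays E and G. On arrays A, B and C it was 0.18, 0.22 and 0.11 in the deletion strain and 0.13, 0.14 and -0.00 in wild type. Wild-type array C was thus the nearest of the 6 to the E and G arrays.

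**Figure D3:**
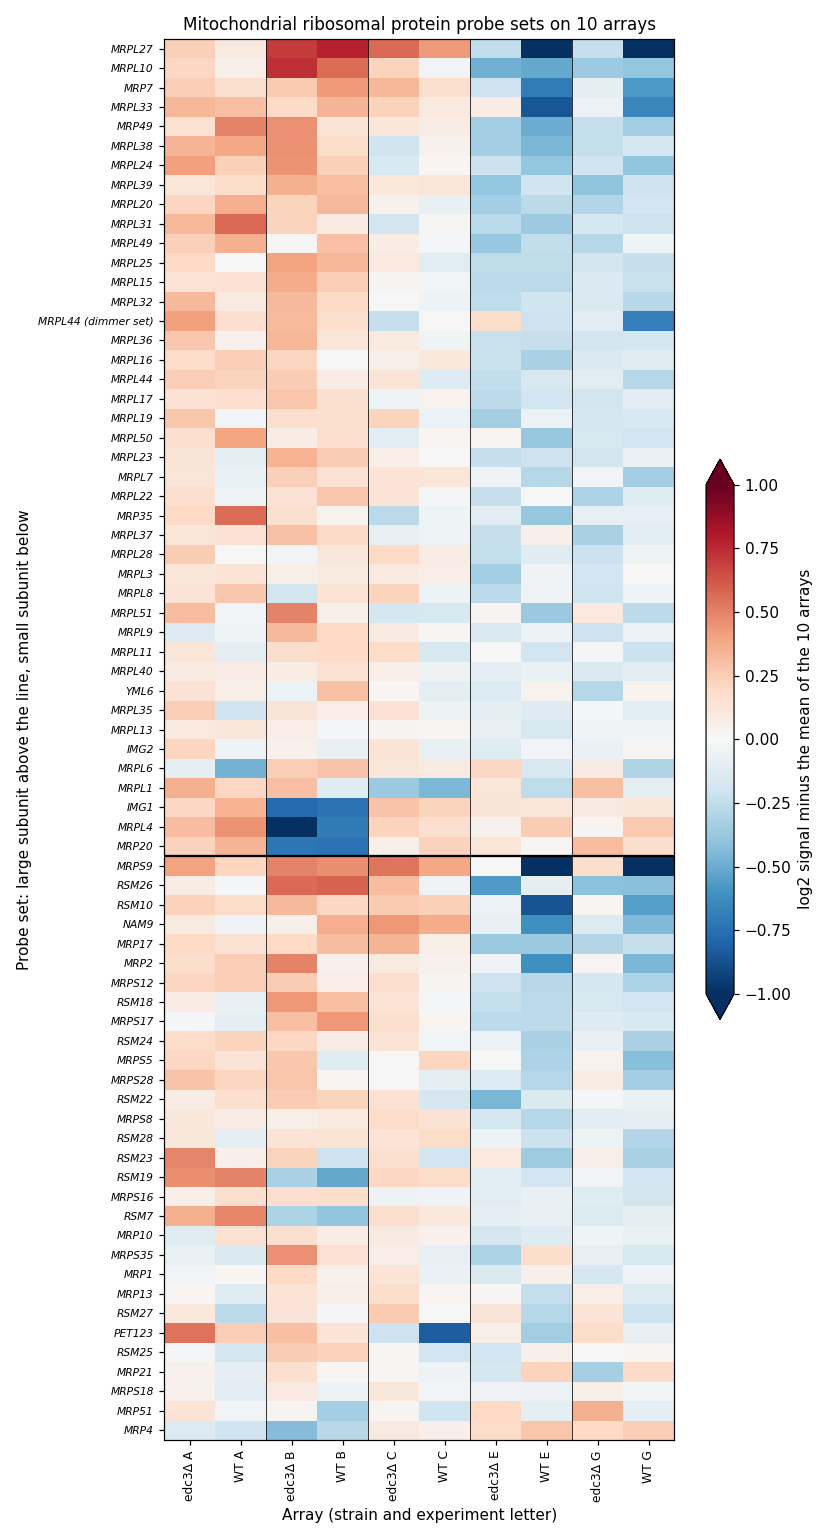
Log2 signal of each of the 72 probe sets (rows, large subunit above the black line and small subunit below) on each of the 10 arrays (columns, edc3Δ left of wild type within each experiment), minus the probe set's mean over the arrays; red is above and blue below that mean, and the scale ends at 1 on either side. Columns E and G are blue for most rows, and IMG1, MRPL4 and MRP20 are blue in both columns of experiment B.

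The lowest E and G values belonged to members of both subunits. MRPL27 had the most negative difference, -1.17 on the log2 scale (limma F test, adjusted p = 0.00426), and MRPS9 followed with -1.04 (adjusted p = 0.0418), for the signals given above. The MRPS9 call was lost without experiment A (adjusted p = 0.0532), B (0.0651) or E (0.0511), after quantile normalization (0.0560) and with no filter on dim probe sets (0.0665). MRPL10, the counterpart of bacterial L15, read 347.1, 498.6, 350.9, 216 and 233.5 in the deletion strain on arrays A, B, C, E and G, against 311.3, 442.9, 294.5, 210.7 and 229.6 in wild type. Its strains moved together, with E and G lowest and B highest in both, a difference of -0.73 and an F test adjusted p of 3.06e-04.

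MRP7, the counterpart of bacterial L27, read 352.7, 357.1, 375.9, 257.8 and 278 in the deletion strain, against 333.8, 399.5, 332.3, 183.6 and 199.9 in wild type. The 4 arrays of E and G were again the lowest, by -0.66 on average (limma F test, adjusted p = 0.00742). RSM26, a small-subunit protein of the superoxide dismutase fold family, read 300.4, 422.8, 353.8, 192.5 and 214.4 in the deletion strain, against 283.8, 428.5, 279, 266.9 and 213.4 in wild type. Its difference was -0.62 (adjusted p = 0.00651, and 0.0851 without experiment B), and its highest arrays were those of experiment B in both strains.

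MRP4, the counterpart of bacterial S2, was the 1 member with all 4 arrays of E and G above the others. It read 155, 125.7, 180.6, 193.2 and 195.7 in the deletion strain, against 148.1, 140.7, 176.3, 205.6 and 201.4 in wild type, a difference of 0.38 (limma F test, adjusted p = 0.00385). MRP20, MRPL4, IMG1 and MRP51 had the next highest differences, 0.26, 0.24, 0.19 and 0.16. For MRP20, MRPL4 and IMG1 it rested on low arrays in experiment B: without that experiment the differences were -0.06, -0.14 and -0.16 and the F test was not passed (adjusted p = 0.385, 0.182 and 0.162).

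These 3 large-subunit genes stood out in experiment B in both strains. MRPL4, the counterpart of bacterial L29, read 161.6 on the deletion array of experiment B, against 331.5 to 401.9 on the other deletion arrays, and 199 on its wild-type array, against 362.7 to 442.9. IMG1, the counterpart of bacterial L19, read 340.0 in the deletion strain in B, against 619.9 to 712.6, and 349.7 in wild type in B, against 629.8 to 742.8. MRP20, the counterpart of bacterial L23 at the peptide exit, read 41.5 in the deletion strain in B, against 71 to 84.6, and 40.9 in wild type in B, against 68.9 to 86.4.

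Against the median of the other arrays of the strain, the B arrays were 2.21 and 1.95 times lower for MRPL4 in the deletion strain and wild type, 1.93 and 1.88 times lower for IMG1, and 1.86 and 1.92 times lower for MRP20. Of all probe sets, 2.39% were at least 1.5-fold lower in experiment B in both strains, against 3 of the 72 members, or 4.17%. Another 3 members, RSM26, MRPL27 and MRPL10, were at least 1.5-fold above that median in B in both strains, where 3.27% of all probe sets were. For these 3 the median takes in the low arrays of E and G: MRPL27 read 449.2 in B and 409.2 in C in the deletion strain. IMG1 (adjusted p = 2.21e-04), MRPL10 and MRPL4 (adjusted p = 3.98e-04) had the smallest p of limma's F test.

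**Figure D4:**
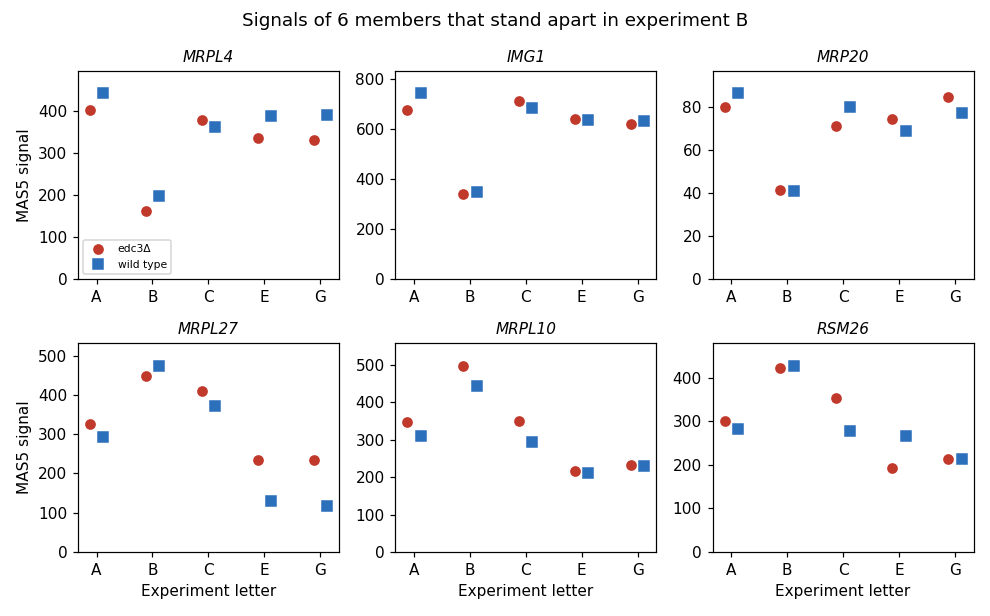
MAS5 signal (y axis, arbitrary linear units, from 0) by experiment letter (x axis) of the 6 members that in experiment B were at least 1.5-fold away from the median of the other 4 arrays of their strain, in both strains, with edc3Δ as red circles and wild type as blue squares. MRPL4, IMG1 and MRP20 are low in B; MRPL27, MRPL10 and RSM26 are highest in B and low in E and G.

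RSM7 and RSM19, the counterparts of bacterial S7 and S19, came next by the F test. RSM7 read 915.4, 573.3, 798.5, 667.7 and 650.9 in the deletion strain on arrays A, B, C, E and G, against 1005.3, 544.9, 771, 680 and 666.9 in wild type (limma F test, adjusted p = 9.90e-04). RSM19 read 176.9, 102.6, 148.5, 119.5 and 126.3 in the deletion strain, against 181.3, 90.1, 145.9, 112.5 and 112.2 in wild type (adjusted p = 0.00127). In both genes and both strains array A was the highest and array B the lowest. MRPS12, the neighbour of RSM19 and the counterpart of bacterial S12, did not share this order: it read 744.1, 765.7, 722.9, 556.3 and 571.3 in the deletion strain, against 763.1, 671.6, 654.6, 529.1 and 515.9 in wild type, with E and G lowest.

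MRPL44 was the 1 gene with a pair of probe sets. The brighter one read 278.6, 280.3, 256.9, 198.5 and 219.2 in the deletion strain, against 274.8, 248.3, 215.2, 210.4 and 193.5 in wild type, a strain difference of 0.11 ± 0.13 (SE, limma adjusted p = 0.999). The dimmer one read 31.7, 29.7, 20.3, 26.9 and 22 in the deletion strain, against 26.7, 26.7, 23.8, 20.6 and 14.8 in wild type, a difference of 0.23 ± 0.20 (SE, adjusted p = 0.999). Their E and G differences over both strains were -0.33 (F test adjusted p = 0.0176) and -0.35 (F test adjusted p = 0.0979), so 1 of the pair was called. Within a strain they were less alike. The brighter set had -0.38 in the deletion strain and -0.28 in wild type, and the dimmer one -0.14 and -0.56. The MRPL15 probe set is marked by the manufacturer as one that may match more than 1 transcript. It had a strain difference of 0.05 and an E and G difference of -0.37.

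Control signals for RNA quality differed between experiments, as did the scan settings where they were recorded. SRB4 is measured by control probe sets at both ends of its mRNA, and the log2 ratio of 3′ end over 5′ end, which is larger where RNA is more degraded or copied less far, was 3.22 to 4.40 on the arrays of E and G and 2.39 to 3.50 on those of A, B and C. That of SPT15 was 2.28 to 2.57 in E and G and 2.11 to 2.41 in A, B and C, and that of ACT1 was 0.66 to 0.99 and 0.60 to 0.92. Experiment C read like E and G for SRB4, at 3.17 on its deletion and 3.50 on its wild-type array. Arrays A read 2.71 and 2.59 and arrays B 2.39 and 2.67. For ACT1, arrays C read 0.91 and 0.92 and deletion array G 0.66. For SRB4, the arrays of E and G thus all read above those of A and B, while those of C overlapped with E and G. For SPT15 and ACT1 the ranges of E and G and of A, B and C overlapped. By strain, the SRB4 ratio was 2.39 to 3.58 in the deletion strain and 2.59 to 4.40 in wild type. The instrument records give a pixel of 2.5 µm and 1 scan for experiment E, 3 µm and 2 scans for A and B, and no entry for C and G. The part of these in the shift was not tested. Across the 71 genes, the E and G difference and gene length correlated at r = 0.19 (rho 0.25) and the difference and mean log2 signal at r = -0.25 (rho -0.28), a description of genes on the same arrays.

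The other genes of mitochondrial translation had 0 limma calls between strains in each list, with and without the block. An unadjusted p under 0.05 was reached by 1 translation factor, 1 regulator, 1 gene of the mitochondrial genome, 3 cytoplasmic ribosomal protein genes and 0 genes of the other lists, where 4.82% of all tested probe sets reached it. In the blocked fit it was reached by 6 higher and 18 lower of 80 cytoplasmic ribosomal protein genes and by 6 higher and 0 lower of 35 respiratory chain and ATP synthase genes, against 11.7% higher and 11.4% lower of all. Also higher were 3 of 7 translation factors, 2 of 14 translational activators, 1 of 14 aminoacyl-tRNA synthetases, 2 of 4 genes of the mitochondrial genome and 1 of 7 regulators. Lower were 1 of 14 assembly factors and 1 of 7 genes of DNA maintenance and transcription. Of the 7 mitoribosome genes outside the naming rule, 0 reached it. Of 7 mitoribosome genes outside the naming rule, such as RML2 and MNP1, 6 had a strain difference above 0, with a median of 0.08 on the log2 scale. Translation factors had 5 of 7 above 0 and a median of 0.13, and among them RRF1, the ribosome recycling factor, differed by 0.29 (limma adjusted p = 0.977) and TUF1, the elongation factor Tu, by 0.25 (adjusted p = 0.999). Mitochondrial aminoacyl-tRNA synthetases, which load tRNAs with amino acids, had 11 of 14 above 0 and a median of 0.07. Factors for assembly of the ribosome and modification of its rRNA had 7 of 14 above 0 and a median of 0.01.

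Activators that help translate single mitochondrial mRNAs had 10 of 14 above 0 and a median of 0.05, with log2 differences of 0.16 for CBP3 and 0.19 for CBP6 (limma adjusted p = 0.999 for both). Genes for mitochondrial DNA maintenance and transcription had 4 of 7 above 0 and a median of 0.00, with -0.14 for ABF2, which packs mitochondrial DNA (adjusted p = 0.999). Of 35 nuclear genes of the respiratory chain and ATP synthase, 29 were above 0, or 82.9%, with a median of 0.06. Of 80 cytoplasmic ribosomal protein genes, 27 were above 0, or 33.8%, with a median of -0.03. RNA of the mitochondrial genome could be tested for 4 of 8 genes, of which ATP6 differed by 0.32 (adjusted p = 0.983) and COX3 by 0.63 (adjusted p = 0.999). COX3 was dim, and with 1 array left out its difference ran between 0.41 and 1.06, highest without wild-type array B.

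Between experiments the lists had different medians, and the counts below stand against 58.1% of all tested probe sets lower in E and G and 51.8% called by limma's F test. Respiratory chain and ATP synthase genes were lower in E and G for 35 of 35, with a median difference of -0.40, and 29 of them, or 82.9%, passed the F test. After quantile normalization and after median centring 34 and 33 of the 35 were lower. Translation factors were lower for 7 of 7, with a median of -0.40 and 6 called, and aminoacyl-tRNA synthetases for 13 of 14, with a median of -0.26 and 7 of 14 called, a share near that of all probe sets. Translational activators were lower for 13 of 14, with a median of -0.24 and 8 called. In DNA maintenance and transcription 5 of 7 were lower, with a median of -0.20 and 4 called. The 7 mitoribosome genes outside the naming rule were all lower, with a median of -0.20 and 3 called, or 42.9%, and after both scalings 6 of 7 were lower. RNA of the mitochondrial genome was lower for 3 of 4, with a median of -0.09 and 2 called, while after median centring 2 of 4 were lower. Assembly factors went the other way, with 5 of 14 lower and a median of 0.09, and 8 called, 3 lower and 5 higher.

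Cytoplasmic ribosomal protein genes were lower in E and G for 15 of 80, with a median of 0.17, and 58 of the 80 were called by the F test. Their median depended on the scaling. After quantile normalization 40 of 80 were lower and the median was -0.00, while after median centring 6 of 80 were lower and the median was 0.26. The plot of group medians by array shows the mitochondrial ribosomal protein and respiratory chain genes side by side with them.

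**Figure D5:**
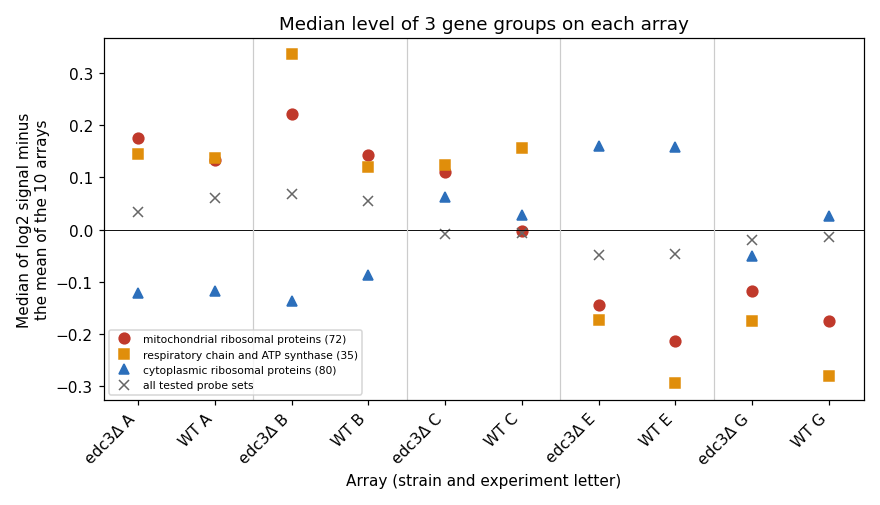
Median over the genes of a group (y axis, log2 signal minus each gene's mean over the 10 arrays) on each array (x axis, edc3Δ left of wild type within each experiment). Mitochondrial ribosomal protein probe sets (red circles) lie between -0.21 and -0.12 on the arrays of E and G, and respiratory chain genes (orange squares) are also lowest there, while all tested probe sets (crosses) stay within 0.07 of zero.

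Regulators known for mRNAs or promoters of mitochondrial genes in general, not of this family alone, were looked at by the same counts. Of 7 tested, 4 had a strain difference above 0, with a median of 0.02. In E and G 4 of 7 were lower, with a median of -0.37, and 5 were called by the F test, 4 lower and 1 higher. HAP1, a haem-responsive activator of respiratory genes, differed by 0.55 ± 0.16 (SE, limma adjusted p = 0.719), at a probe set marked as open to cross-hybridisation. It read 697.6, 727.8, 729.9, 1019.5 and 1124.3 in the deletion strain on arrays A, B, C, E and G, against 489.5, 618.6, 710.9, 514.6 and 576.1 in wild type, with the widest gaps in E and G and nearly none in C. HAP4, the glucose-repressed subunit of the Hap activator complex, was named after its values were seen. It read 134.1, 177.5, 128.2, 69.9 and 74.8 in the deletion strain on arrays A, B, C, E and G, against 164.1, 140.4, 146.8, 68.2 and 64.9 in wild type. Its strains overlapped, and its 4 arrays of E and G were the lowest, with a difference of -1.09 (limma F test, adjusted p = 0.00101). PUF3 was too dim to be tested, with signals of 7 to 20.8 in the deletion strain and 9.1 to 21.4 in wild type.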

How the data were processed

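RNA was measured on 10 one-colour arrays. The deposited values are intensities: per the submitters' processing notes, MAS5 gave 1 signal per probe set and array , of a version the sources used here do not name. The arrays' means, trimmed by 2%, differed by at most 0.0186%, so the values were already scaled between arrays. Without detection calls, absence of a transcript cannot be read from a low signal. From these, log2 signals were computed, with 156 signals of 0 raised to 0.1. Of 9335 probe sets, 60 controls were left out. Of the others, the platform annotation gives 1 gene to 6504, several to 328 and none to 2443. Symbols were updated to R64, in which all 71 genes matched. The dimmest 30% (mean signal under 16.8) were left out, which left 6492.

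Strain differences were fitted in R 4.3.3 by limma 3.58.1 (lmFit, eBayes with trend), 5 arrays against 5, two-sided, with Benjamini-Hochberg adjustment over all 6492. Experiments were compared with limma's F test in a fit with strain and experiment. The two-sided exact permutation test of log2 means cannot go below 0.00794. Alternatives were the experiment as a block, other scalings, filters and offsets, array weights, chip lot and scan day, and leaving out arrays. Deviations of same-numbered arrays from the strain means correlated at 0.65, 0.713, 0.475, 0.652 and 0.692 in experiments 1 to 5 (letters A, B, C, E, G) over all tested probe sets, so the shared letters were taken as pairing in the blocked fit. The main strain fit, with its standard errors and adjusted p values, left this pairing out, and so did the permutation test.

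Members and lists were chosen with earlier results of these data known. MRP35 was put in the large subunit after the files were read. Named were EDC3, the 10 members of smallest strain p, the 5 highest and 5 lowest in E and G, the 5 of smallest F test p, both MRPL44 probe sets and up to 2 genes of smallest p of each other list. A gene of a list stands by its brightest probe set. The procedures were tested on simulated data.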

Additional observations from a re-analysis of the deposited data

Results flagged for a closer look

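In 9 of 94 groups of 5 arrays, or 9.57%, 1 array lay far from the other 4. The measure is the gap to the nearest other array as a share of the group's range, with a limit of 0.71, which chance alone passes in about 1 in 20 groups. The groups are those of the named genes and of the members' median. Some of these genes, IMG1, MRPL4 and MRP20 among them, were named for their differences between these same arrays. The count therefore cannot be held against that rate. Of the 9, 5 concern experiment B in genes of the large subunit. For MRPL4 the share was 0.789 in the deletion strain and 0.750 in wild type, for IMG1 0.812 in the deletion strain and 0.781 in wild type, and for MRP20 0.754 in the deletion strain, and the B array was the low one each time. COX3 in wild type also stood apart in experiment B, with a signal of 47.1 against 8 to 12.1 on the other arrays and a share of 0.767.

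RSM27 in the deletion strain was high in experiment C, 86.9 against 78.1 to 79.7, with a share of 0.810. MRM2, an rRNA methyltransferase gene, was low in experiment A of the deletion strain, 30.5 against 33.8 to 34.2, with a share of 0.897. EDC3 in the deletion strain was at 0.1 in experiment C, against 1 to 2.3, with a share of 0.734, on arrays where the gene is absent. No cause of these was tested.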

How the results depend on the processing

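In the strain comparison, 25 of 27 alternatives gave 0 called members, among them the replicate block (0 of 72), the block with E and G averaged, and each array left out in turn. The 2 exceptions, chosen after seeing the data, were experiments 4 and 5 (E and G) alone, with 20 called members, and the same with the replicate block, with 32. The block changed no call of a member over all arrays. The median strain difference of the members was 0.019 with array weights, 0.083 within the chip lot of experiments 2 and 3, and 0.020 to 0.13 with 1 array left out. With array weights 1 cytoplasmic ribosomal protein gene, RPL15B, and 1 regulator, HAP1, were called. Within that lot, with 2 arrays a strain, the EDC3 difference was -10.12 and not called (adjusted p = 0.999994), so the fit says nothing about other genes. There the dimmer MRPL44 probe set read -0.038 and MRPL33 -0.0051, and MRPL33 read -0.054 within the scan day of experiments 1 and 2. HAP2 ran between -0.0044 and 0.19 with 1 array left out.

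Between experiments, called members numbered 12 with experiments 1 to 3 alone and 29 to 44 with 1 experiment left out. The share of all tested probe sets called also fell, from 51.8% in the main fit. It was 36.2% to 51.0% with 1 experiment left out, and 16.6% at its lowest over all settings. A drop in called members is therefore not particular to the family. The E and G median was -0.20 after quantile normalization and -0.20 after median centring. With 1 experiment left out, the E and G difference ran between -0.38 and 0.0088 for RSM7, -0.059 and 0.45 for MRP20, -0.14 and 0.48 for MRPL4, and -0.16 and 0.36 for IMG1. The cause was not tested. MAS5 itself could not be varied, the file gives no signal over background, and 5 arrays a strain limit what is detectable.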
